A study of Mus musculus with 3 samples.

Results

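Acta2-high cells were single cells of the cardiac precursor cell culture (CPCC) that carried high levels of Acta2, which encodes smooth muscle alpha-actin, and of Tagln, which encodes the actin-binding protein transgelin. A cell was taken as a member when it had at least 100000 gene counts, at least 2000 CPM (gene counts scaled to a total of 1000000 in each cell) of Acta2 and Tagln together, and under 100 CPM of C1qa, C1qb and C1qc together, the chains of complement C1q that macrophages make. The CPCC table held 175 of the 622 cells of the series, 169 of these had the depth, and 54 met the rule. They made up 32.0% of the cells at depth, with an exact Clopper-Pearson 95% interval of 25.001 to 39.551%. The members were chosen by their measured levels of Acta2, Tagln and C1q transcripts, so all differences from other cells are given as descriptions, with no test and no p-value.

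The series profiled single cells of male F1 stem cells from a cross of the mouse strains C57BL/6 (C57BL/6J in the study's methods) and CAST/EiJ, as embryonic stem cells (mESC), as CPCC and as cardiac bodies (CB), aggregates grown until they beat. Per the study's methods, the CPCC came from dissociated embryoid bodies that were passaged in an enrichment medium with EGF and Fgf2, and the starting lines were clones from several blastocysts. Each culture is 1 sample, the cells of a culture are not replicates, and no column said which clone a cell came from. The CPCC columns carried 2 pool numbers, and values are over both pools unless a pool is named.

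Smooth muscle alpha-actin and transgelin are parts of the contractile apparatus of smooth muscle cells, and myofibroblasts and spreading cells in culture make them too. Transcription of such genes is known to depend on serum response factor (SRF), which binds a CArG box and acts with myocardin or the myocardin-related factors, while TEAD factors with YAP and TAZ bind an MCAT element. Mesenchymal cells also secrete the collagens, matricellular proteins and elastic fibre proteins of the extracellular matrix. These are background facts and not results.

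SRF sites are known in contractile and cytoskeletal genes, and the 4 promoters shown are of the genes of the contractile and target lists, Acta2, Myl9, Vcl and Fhl2, in which the search below found a CArG box or a run 1 base away from it. The other genes of these lists with an entry had neither. The RefSeq promoter table used here (GRCm38.p6) held 300 bases a promoter, 250 before and 50 after the start. A CArG box was searched as CC, a run of 6 bases that are A or T, and GG, a pattern that reads the same way on both strands. It was in 488 of 27025 genes (1.81%), and 3050 genes (11.3%) had it when 1 of the 6 central bases was free. The MCAT core CATTCC, searched on both strands, was in 4481 genes (16.6%), and it can overlap a CArG box only at the ends. Of the 14 smooth muscle contractile genes 11 had an entry: 1 held a CArG box, 2 with the free base allowed, and 6 an MCAT core. Of the 10 SRF and YAP/TAZ target genes 9 had an entry, with a CArG box in 2 and an MCAT core in 6. Tagln, Actg2, Myh11 and Ccn2 had no entry. The stretches below are the 250 bases before the start, 5′ to 3′ on the strand of the gene, and capitals mark a CArG box or, at both places in Acta2 and at the later place in Myl9, a run with 1 other base in the centre.
Acta2: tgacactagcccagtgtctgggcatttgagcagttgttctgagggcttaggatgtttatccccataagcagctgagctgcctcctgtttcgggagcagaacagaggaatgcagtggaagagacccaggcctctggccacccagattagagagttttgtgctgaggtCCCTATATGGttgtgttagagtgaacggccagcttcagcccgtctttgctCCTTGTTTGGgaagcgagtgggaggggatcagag
Myl9: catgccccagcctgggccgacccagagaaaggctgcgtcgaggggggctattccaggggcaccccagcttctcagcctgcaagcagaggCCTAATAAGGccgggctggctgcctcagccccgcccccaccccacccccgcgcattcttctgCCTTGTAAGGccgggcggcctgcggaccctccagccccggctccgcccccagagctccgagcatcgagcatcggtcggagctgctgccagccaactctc
Vcl: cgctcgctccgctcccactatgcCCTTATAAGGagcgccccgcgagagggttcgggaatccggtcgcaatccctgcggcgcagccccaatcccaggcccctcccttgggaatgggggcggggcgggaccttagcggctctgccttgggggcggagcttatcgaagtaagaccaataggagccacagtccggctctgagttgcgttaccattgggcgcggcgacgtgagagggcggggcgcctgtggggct
Fhl2: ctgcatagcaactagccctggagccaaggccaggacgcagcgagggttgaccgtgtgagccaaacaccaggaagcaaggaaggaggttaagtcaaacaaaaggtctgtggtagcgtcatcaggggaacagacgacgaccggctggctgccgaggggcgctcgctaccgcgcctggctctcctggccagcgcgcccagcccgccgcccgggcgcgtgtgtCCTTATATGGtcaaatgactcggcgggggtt
The Acta2 stretch is chr19:34255374-34255623 on the minus strand, and its marked runs begin 84 and 34 bases before the start. In Myl9, a myosin light chain gene (chr2:156775214-156775463, plus strand), they begin 161 and 99 bases before it. In Vcl, which encodes the adhesion protein vinculin (chr14:20929148-20929397, plus strand), the box begins 227 bases before it. In Fhl2, which encodes a LIM-domain protein, 1 of 2 listed promoters is shown (chr1:43163962-43164211, minus strand), and its box begins 31 bases before the start. A match is a description of these letters and not a bound site.

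The threshold lay in a narrow gap, and 5 cells below it had 1000 CPM or more. The members nearest above it had 2294, 2811 and 2908 CPM of Acta2 and Tagln together, and the cells nearest below it 1523, 1429 and 1329 CPM. The member median was 13340 CPM and the highest 50707 CPM. The 115 other cells fell into 20 with 100 CPM or more of C1q transcripts, all in pool 2, and 95 remaining cells, whose median was 13.7 CPM of Acta2 and Tagln. The C1q limit left out 2 cells that passed the contractile threshold. The highest C1q level in a member was 81.8 CPM, the lowest in a C1q-high cell 116 CPM, and 27 members had no C1q count, among them all 18 in pool 1.

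**Figure D1:**
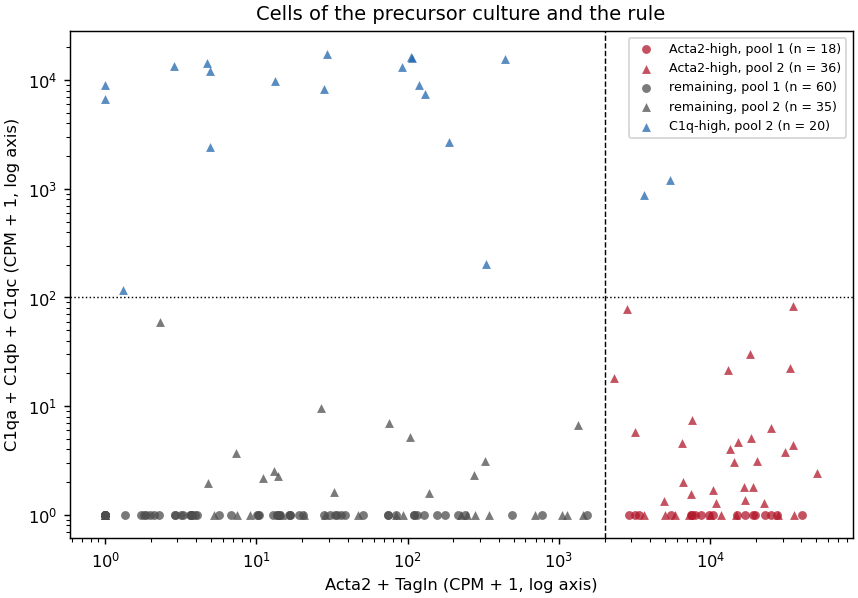
Each point is 1 of the 169 CPCC cells at depth, with Acta2 plus Tagln on the x axis and C1qa plus C1qb plus C1qc on the y axis, both as CPM + 1 on log axes, circles for pool 1 and triangles for pool 2. The dashed lines are the limits of the rule, the 54 red points at lower right are the Acta2-high cells, and the 20 blue points are the C1q-high cells, of which 2 lie beyond the contractile limit.

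Members were found in both pools, 18 of 78 cells in pool 1 (23.1%, interval 14.3 to 34.0%) and 36 of 91 in pool 2 (39.6%, interval 29.5 to 50.4%). Depth was like that of the other cells: members had 290297 to 5705829 gene counts (median 1693683) and other cells 182980 to 4774854 (median 1375597). The median member had 9324 genes with a count and the median other cell 9343, or 7199 and 7208 once every cell was thinned to 100000 counts. Mitochondrial genes held 0.369 to 10.1% of the counts of members, and 3 other cells but no member exceeded 20%.

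Acta2 (chr19:34241090-34255590 in GRCm38) ranged from 0.358 to 44570.4 CPM in members, with a median of 10644. In the other cells its median was 2.32 and its highest level 4713 CPM, in a C1q-high cell. Tagln (chr9:45929619-45936058) ranged from 833 to 13048 CPM in members (median 3099) and reached 1515 CPM in other cells (median 3.85). The ranges overlapped for each gene on its own, since the rule used the sum. Acta2 was under 1000 CPM in 3 members, and the member with the lowest Acta2 passed through 2907 CPM of Tagln. The counting model is not given in the sources used here, so reads that Acta2 could share with its near-identical paralogs Actg2 and Actc1 make all of these actin values uncertain.

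The label of mesenchymal cells was checked with Sparc, Postn and Fbln5, which the rule did not use. Sparc (chr11:55394500-55423183), a collagen-binding matricellular protein, was detected (1 count or more) in 54 of 54 members at 52 to 20219 CPM, median 3292, against a median of 152 CPM in other cells, where it was detected in 111 of 115. Postn (chr3:54361109-54391037), periostin, was detected in 27 of 54 members and 8 of 115 other cells, with a median of 0.146 and a highest level of 3096 CPM in members. Fbln5 (chr12:101746565-101819055), fibulin-5 of elastic fibres, was detected in 30 members and 11 other cells, up to 7464 CPM in members and 26.4 CPM in others. All 3 were detected in 20 members, Sparc and 1 of the others in 17, and Sparc alone in 17. Thinned to 100000 counts, Postn was detected in 42.6% of members against 2.61% of other cells, and Fbln5 in 46.3% against 2.61%. Sparc was thus detected in every member but also in most other cells, at levels that overlapped, whereas Postn and Fbln5 were carried by some members and at 0 in many. The cells are therefore called Acta2-high below.

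**Figure D2:**
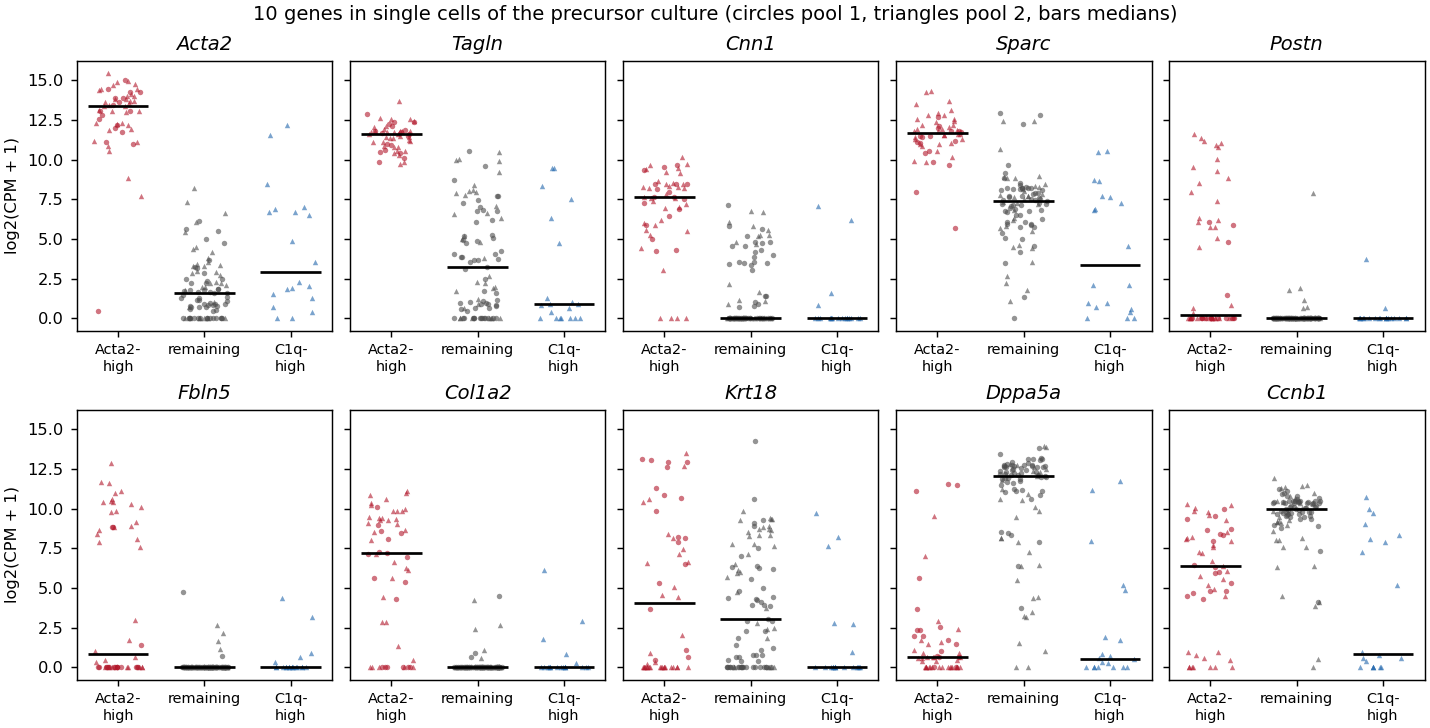
Levels of 10 genes in single cells, as log2(CPM + 1), in the 54 Acta2-high, 95 remaining and 20 C1q-high cells (circles pool 1, triangles pool 2, bars medians over cells). Acta2 and Tagln chose the cells. Cnn1, Sparc and Col1a2 have higher medians in Acta2-high cells, Postn and Fbln5 are near 0 in many of them, Krt18 spans both ends of the scale, and Dppa5a and Ccnb1 have higher medians in the remaining cells.

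Across genes, members were set against the 115 other cells by the log2 ratio of (mean CPM + 1), in which every cell has the same weight. Of 23371 listed genes, 13314 had a count in at least 25% of the cells of either set, and 1899 of these (14.3%) were at least 2-fold higher and 1842 (13.8%) at least 2-fold lower in members. Within each pool on its own, 1180 of the higher and 971 of the lower genes were again past 2-fold. Of the genes of the lists below, outside the rule, 121 were at least 2-fold higher and 42 lower, and 110 and 26 of these were so in each pool. The median ratio over all genes that passed was −0.10 on the log2 scale. The rule used the same cells, so nothing is read from these shares, and the counts of each list below stand beside them. Genes above the filter only through members were detected in a larger share of members, which favours a higher ratio without fixing it. Genes under the filter are counted as not passing.

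Of the 14 smooth muscle contractile genes, 11 passed the filter, and of the 9 outside the rule 8 were at least 2-fold higher, with a median log2 ratio of 3.62. Cnn1, calponin of the actin filament, ranged from 0 to 1129.6 CPM in members (median 199) and was detected in 50 of 54 against 45 of 115 other cells, where the median was 0. Its log2 ratio was 4.49, with 4.75 in pool 1 and 4.24 in pool 2. Myl9, the regulatory light chain of non-sarcomeric myosin, had a mean of 937 CPM in members and 49.4 CPM in others. Cald1, caldesmon, had means of 1276 and 105 CPM and was detected in every member. Tpm1 and Tpm2, tropomyosins that are also close paralogs, had log2 ratios of 2.80 and 3.62.

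Actg2, smooth muscle gamma-actin, was detected in 38 members and 21 other cells, with member levels from 0 to 5689 CPM and a median of 82.9. Lmod1, the actin nucleator leiomodin, was detected in 42 members and 4 other cells at a log2 ratio of 3.94. Smtn, smoothelin, differed by less than 2-fold at 0.76. Des, the intermediate filament desmin, was detected in 16 members and 19 others at a log2 ratio of 2.49. Other genes of smooth muscle were sparser in members. Myh11, the smooth muscle myosin heavy chain, had counts in 4 of 54, Mylk, myosin light chain kinase, in 7, Synpo2 in 10, and Myocd, the coactivator myocardin, in 6. None of these 4 passed the filter.

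All 10 SRF and YAP/TAZ target genes passed and were at least 2-fold higher in members, with a median log2 ratio of 3.01. That median was 4.07 as a difference of mean log2(CPM + 1). Ccn1 and Ccn2, secreted matricellular signals induced by YAP and TAZ, had member means of 896 and 1286 CPM and means of 105 and 83.6 CPM in other cells. Ankrd1, an ankyrin repeat protein, was detected in 38 members and 17 others and reached 7117 CPM in members at a median of 56.1. Axl, a receptor tyrosine kinase, was detected in 51 members and 17 others at a log2 ratio of 4.31. Vcl and Fhl2, whose promoters are printed above, had log2 ratios of 2.95 and 3.49, and Amotl2, an angiomotin that binds YAP, had 1.08, and 0.88 within pool 2.

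The regulators themselves differed less, with 4 of the 9 that passed at least 2-fold higher. Wwtr1, which encodes TAZ, had means of 128 CPM in members and 34.5 in others, and Tead1 103 and 40.3 CPM. Srf had means of 14.2 and 11.6 CPM and Yap1 of 21.2 and 22 CPM, log2 ratios of 0.27 and -0.06. Mrtfa, a myocardin-related coactivator, had 1.31 (0.78 within pool 1), and Tead3 2.28 at a member mean of 5.51 CPM.

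In the adhesion and cytoskeleton list 11 of 14 genes were at least 2-fold higher. Vim, the intermediate filament vimentin, was detected in 53 of 54 members with a median of 1625 CPM, against a median of 28.7 CPM in others. Lgals1, S100a6 and Anxa2, which bind calcium or glycans, had log2 ratios of 2.98, 3.50 and 2.94. Itgb1, the common beta chain of matrix receptors, had means of 1905 and 229 CPM. Itgav had a log2 ratio of 1.66 against all other cells, 3.62 against the remaining cells and -0.52 against the C1q-high cells.

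All 11 collagen chain genes that passed were at least 2-fold higher in each pool, and the remaining chain, Col6a3, had counts in 9 members and no other cell. The median log2 ratio of the list was 5.42. Col1a2 (chr6:4504814-4541544), a chain of fibrillar collagen I, ranged from 0 to 2249 CPM in members (median 151) and was detected in 43 of 54 against 13 of 115 others. Col1a1, its partner chain, was detected in 45 and 19, and Col3a1, of the fibrils of soft tissue, in 37 and 11. Col5a1 and Col8a1 had log2 ratios of 5.67 and 5.53. Col4a1 and Col4a2, the basement membrane chains, had the lowest ratios of the list, 2.30 and 2.38, and reached 1869.7 and 905 CPM in single other cells. Summed over the 12 chains, members ranged from 0 to 9854 CPM with a median of 1975, and other cells from 0 to 2796 CPM with a median of 3.60. Thus 37 members and 5 other cells reached 1000 CPM, and 2 members had no collagen count.

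Of the 11 collagen processing genes that passed, 9 were at least 2-fold higher. Lox, the oxidase that crosslinks collagen and elastin, was detected in 35 members and 10 others at a log2 ratio of 5.32. Serpinh1, the collagen chaperone, had means of 237 and 19.4 CPM, and Bmp1, a procollagen proteinase, a log2 ratio of 3.11. Plod1, a lysyl hydroxylase, had 0.04.

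Of 8 matricellular genes that passed, 6 were at least 2-fold higher. Tnc, tenascin-C, was detected in 41 members and 9 others and Thbs1, thrombospondin-1, in 53 and 38, with log2 ratios of 7.12 and 5.03. Fn1, fibronectin, was detected in every member, at means of 1506 CPM in members, 152 CPM in remaining and 799.7 CPM in C1q-high cells. Spp1, osteopontin, was lower in members, at a log2 ratio of -3.71 that was -0.24 against the remaining cells and -6.12 against the C1q-high cells, and -0.62 within pool 1.

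Elastic fibre genes were at least 2-fold higher for 8 of 11 that passed, with a median log2 ratio of 4.30. That median was 2.12 with a pseudocount of 10 CPM and 2.77 as a difference of mean log2(CPM + 1). Fbn1, fibrillin-1, was detected in 41 members and 12 others, Mfap2, a microfibril protein, in 43 and 16, and Efemp2, which binds elastin and Lox, in 51 and 40. Elastin itself, Eln, had counts in 3 members. Ltbp4 and Mfap5 were lower, at -1.40 and -1.15, and within pool 2 alone they were at -0.20 and 0.24. Among the 7 small proteoglycans, Bgn, biglycan, and Ogn passed. Bgn ranged from 0 to 7578 CPM (median 601) in members and was detected in 47 of 54 against 30 of 115 others. Dcn and Lum, decorin and lumican of collagenous stroma, had counts in 9 and 5 members.

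**Figure D3:**
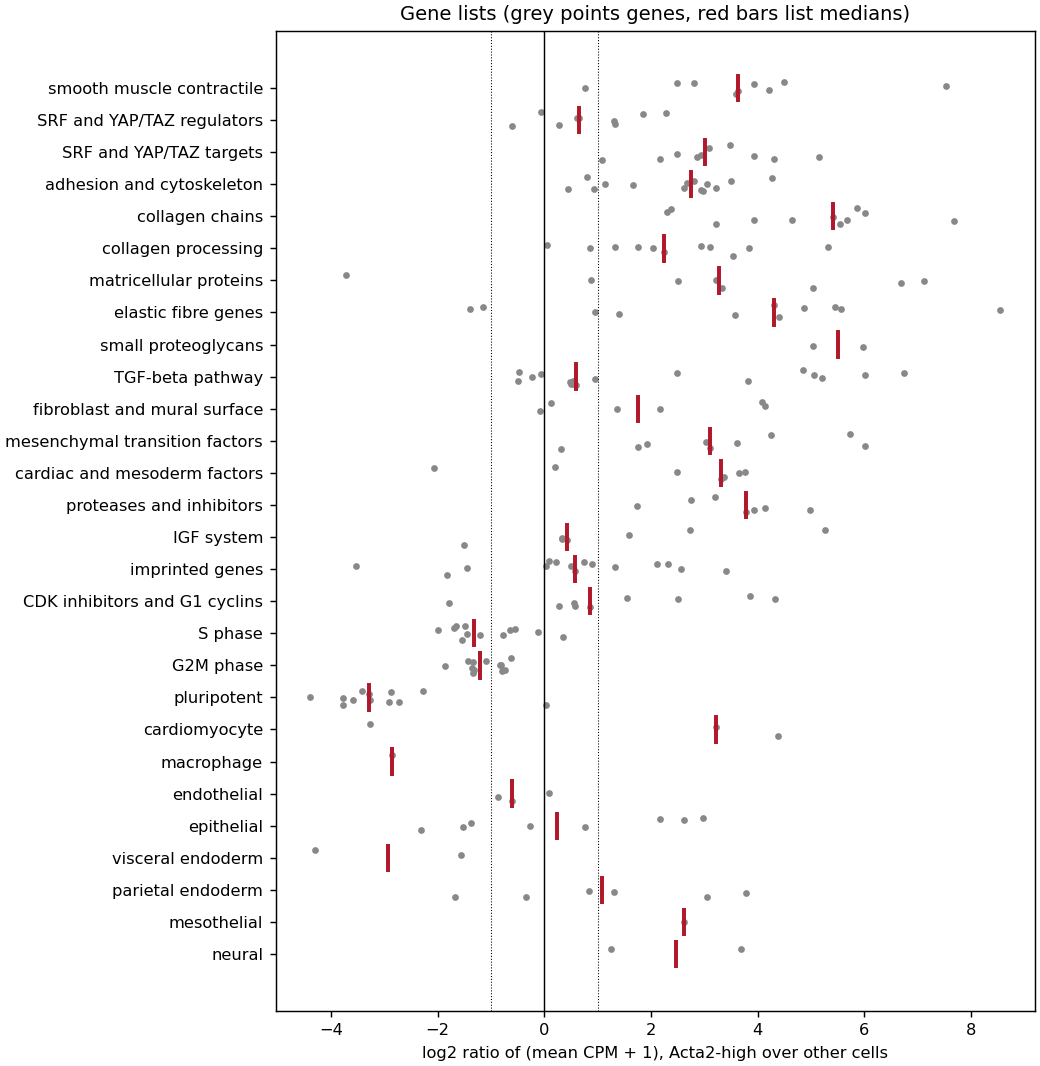
Log2 ratio of (mean CPM + 1) of Acta2-high cells over the 115 other cells for the genes of 28 lists that passed the filter, without the genes of the rule. Grey points are genes, red bars list medians, and dotted lines 2-fold. The medians of the collagen chains (5.42), the elastic fibre genes (4.30) and the contractile genes (3.62) lie to the right, and those of the pluripotent genes (−3.28) and of S phase (−1.32) and G2M phase (−1.21) to the left.

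In the TGF-beta pathway, 7 of 17 genes that passed were at least 2-fold higher and none was lower by that much. Inhba, the activin A subunit, was detected in 36 members and 6 others at a log2 ratio of 6.74, and Tgfb2 in 49 and 11 at 5.21. Tgfb3 had 5.05, and Ltbp1, which holds latent TGF-beta in the matrix, 3.81. Tgfbr1, Tgfbr2, Smad2, Smad3 and Smad4 had log2 ratios between -0.23 and 0.59. Tgfbr2 was at 3.43 against the remaining and -2.47 against the C1q-high cells.

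All 7 proteases and inhibitors that were listed passed and were at least 2-fold higher. Mmp2, a gelatinase, and its regulators Timp2 and Mmp14 had log2 ratios of 4.13, 2.74 and 3.20, and Timp3 reached 8928 CPM at a member median of 113. In the IGF system 7 genes passed, of which 3 were at least 2-fold higher and 1 was lower by that much. Igfbp7 was detected in 49 members and 32 others and had means of 1059 and 26.6 CPM. Igf2r, the lower gene, had a log2 ratio of -1.51, and Igfbp4 had 2.72. Igfbp3 had 1.58, but -0.77 within pool 1. Igf1 had a mean of 84.4 CPM in members, 0.487 CPM in remaining and 357 CPM in C1q-high cells.

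Among the genes outside the lists, the naming rule added Mgp, Cxcl12 and Ptx3 as higher in members. Mgp, matrix Gla protein, an inhibitor of calcification, had a log2 ratio of 7.99 and was detected in 30 members and 9 others. Cxcl12, a stromal chemokine, was detected in 39 and 30 at 6.27, and Ptx3, a pentraxin, in 27 and 2 at 6.10. Within pool 1 alone these ratios were smaller, at 2.15 for Mgp, 3.84 for Cxcl12 and 1.82 for Ptx3. The naming rule took the 15 highest and 10 lowest ratios of genes with a count in 50% or more of the higher set and the same sign in each pool. Fbln5, Col1a2, Actg2, Tnc, Inhba, Postn, Col1a1, Prrx1, Bgn, Col3a1 and Cdh11 were also among the 15.

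Mesenchymal transition factors were at least 2-fold higher for 8 of 9 genes. Prrx1 (chr1:163245119-163313710), a homeobox factor of limb and craniofacial mesenchyme, was detected in 37 of 54 members (68.5%, interval 54.4 to 80.5%) and in 0 of 115 other cells, which allows a share of up to 2.61% for cells with a count (3 of 115, the limit taken for a count of 0, and not an exact interval). Its levels in members ran from 0 to 467 CPM with a median of 37.5. Snai2, which represses cadherin-1, was detected in 23 members and 7 others, and Zeb1, another such repressor, in 35 and 21. The mesenchymal cadherins Cdh11 and Cdh2 had log2 ratios of 5.73 and 3.62. Zeb2 was at 0.31 against all other cells, 4.36 against the remaining and -2.14 against the C1q-high cells.

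Surface markers of fibroblasts and mural cells were uneven. Mcam was detected in 52 members and 33 others (log2 ratio 4.14) and Pdgfrb, the PDGF receptor of mural cells, in 25 and 4 (4.08, and 2.06 within pool 1). Pdgfra, which marks many fibroblasts and mesoderm progenitors, had counts in 4 members, Rgs5, a pericyte marker, in 8, and Fap in 1. Thus 4 of the 6 genes that passed were at least 2-fold higher, and 4 did not pass. Eng had a log2 ratio of 1.36, but -0.37 within pool 1.

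The culture is named for cardiac precursors, and cardiac genes were carried by some of the members. Of 16 listed cardiac and mesoderm factors 7 passed, and 5 of these were at least 2-fold higher. These were Meis1 (3.65), Meis2 (2.49), Tbx20 (3.30), Foxc1 (3.77) and Foxc2 (3.36), with member means of 13.3 to 44.5 CPM. Within pool 1 alone Foxc1 was at 1.19, Tbx20 at 1.31 and Meis1 at 2.10. Tbx20, a T-box factor of the heart, was detected in 23 members and 5 others. Nkx2-5, the homeobox factor of cardiac progenitors, was detected in 8 of 54 members (14.8%) and 1 of 115 others, at no more than 19.3 CPM. Isl1 had counts in 7 members, Hand2 in 9, Gata4 in 8 and Tcf21 in 2. Mef2c had a log2 ratio of -2.07 against all other cells but 2.08 against the remaining cells and 1.18 within pool 1, and its mean in C1q-high cells was 288 CPM.

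Of 13 cardiomyocyte genes 3 passed. Summed over the list, members ranged from 0 to 2564 CPM with a median of 21.3, and other cells from 0 to 707 CPM with a median of 20.5. Thus 7 of 54 members and 0 of 115 other cells reached 1000 CPM, and 14 members had no count. Tnnt2, cardiac troponin T, was detected in 25 of 54 members and 13 of 115 others and ranged from 0 to 2151 CPM in members at a median of 0, with a log2 ratio of 4.38 that was 1.73 within pool 1. Tnni1, the slow skeletal and fetal troponin I, was detected in 18 members. Ttn, titin, was lower, at -3.27. Among genes that did not pass, Actc1, cardiac actin, had counts in 9 members and 7 others and reached 1245 CPM in members, and Nppa, the atrial natriuretic peptide, had counts in 2 members and 1 other cell. The sarcomere genes Myh6 and Myl2 had counts in 4 and 2 members, and Tnni3, cardiac troponin I, in 0 of 54, which allows a share of up to 5.56% by the same limit of 3 cells.

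Cell cycle genes were lower in members as a group. Of 12 S phase genes 7 and of 12 G2M genes 7 were at least 2-fold lower, with medians of −1.32 and −1.21. In each pool on its own 5 and 4 of these were so, and within pool 2 the medians were −0.92 and −0.90. Ccnb1, cyclin B1, ranged from 0 to 1276 CPM in members (median 81.7) against a median of 888 CPM in others. Summed over the 12 G2M genes, the member median was 670 CPM, that of the remaining cells 4177 CPM and that of the C1q-high cells 557 CPM. Levels of 1000 CPM or more were reached by 26 of 54 members and 99 of 115 other cells, so the levels overlapped. Mcm2 to Mcm6, helicase subunits of replication, had log2 ratios between -1.69 and -0.77. Against the C1q-high cells alone the medians of both lists were close to 0, at 0.16 and 0.00.

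CDK inhibitors and G1 cyclins went in both directions, with 4 of the 9 that passed at least 2-fold higher and 1 lower. Cdkn1a, the inhibitor p21, was detected in 51 members at a median of 545 CPM, against 46.6 CPM in others. Cdkn2b, p15, a known TGF-beta target, was detected in 45 members and 27 others at a log2 ratio of 4.33. Ccnd2, cyclin D2, had 3.85 and Ccne1, cyclin E1, -1.78 (-0.96 within pool 2). Cdkn2a was detected in 24 members at no more than 24.2 CPM.

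Pluripotency genes were at least 2-fold lower for 11 of 12, with a median of −3.28. Dppa5a, an RNA-binding protein abundant in stem cells, had a median of 0.595 CPM in members and 3315 CPM in others, but was detected in 35 members and reached 2978 CPM. Pou5f1, the pluripotency factor Oct4, was detected in 6 of 54 members and 91 of 115 others. Nanog had means of 43.5 and 292 CPM. Klf4, which differentiated cells also carry, had a ratio of 0.04. Against the C1q-high cells the list median was −0.30, so its difference lay between members and the remaining cells, where it was −3.53.

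The 10 genes with the lowest ratios by the naming rule were Myo1f, 1700019D03Rik, Sycp3, Gpx2, Mymx, Dppa5a, Fermt3, Gm10323, Apoe and Gm21411. Myo1f, a myosin of leukocytes, and Fermt3, a kindlin of blood cells, were lower against the remaining cells (-4.47 and -2.49) and against the C1q-high cells (-6.65 and -6.53). Sycp3, a meiotic chromosome protein, had counts in 3 members and 61 others, and Gpx2, a glutathione peroxidase, in 3 and 67. Apoe, apolipoprotein E, was detected in 51 members at a median of 32.5 CPM, and in every other cell at a median of 774 CPM. Gm10323 is annotated as a processed pseudogene and its values are uncertain.

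Imprinted genes differed in both directions, 5 higher and 3 lower of 15 that passed. H19, a noncoding RNA, was detected in 48 members and 53 others with means of 794 and 158 CPM. Plagl1 and Ndn had log2 ratios of 3.41 and 2.55, Sgce 2.10 and Peg3 1.32, and Plagl1 was at 0.92 within pool 1. Snrpn had -1.46, Grb10 -1.82 and Phlda2 -3.52. The tables do not separate the parental alleles. Xist, the RNA of X inactivation, had counts in 1 of 54 members and 31 of 115 other cells of this male line, and a Y-linked gene was detected in 49 of 54 members and 97 of 115 others.

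Markers of other cell types were read as whole lists. Of 10 macrophage genes, 3 passed, of which C1qb and C1qc belong to the rule, and Cd68 was the only one outside it. The summed level, which holds the C1q genes that the rule limited in members, ranged from 0 to 243 CPM in members and 0 to 27564 CPM in others, with 10 members at 0. Ptprc, the leukocyte antigen CD45, had counts in 3 members at no more than 2.29 CPM and Csf1r in 8 at no more than 9.17 CPM. Of 8 endothelial genes 3 passed and none differed by 2-fold. Cdh5, VE-cadherin, had counts in 7 members, Emcn in 3 and Cldn5 in 0, and the endothelial sum reached 6178 CPM in members, with 2 members at 1000 CPM or more. Of 8 listed visceral endoderm genes Apoe and Dab2 passed and both were lower (-4.30 and -1.57), although Dab2 was at 0.62 within pool 1 and 1.20 against the remaining cells. Afp and Apoa1, which define that tissue, had counts in 1 and 0 members.

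Of 8 parietal endoderm genes 6 passed and 3 were higher, Plat (3.79), Thbd (3.05) and Lamb1 (1.31, and 0.81 within pool 1), while Sox7, its transcription factor, had counts in 2 members. Pth1r was lower at -1.67, but at 1.12 within pool 2. Of 7 mesothelial genes only Krt19 passed, whose higher mean rested on the 13 keratin-rich members described below, Upk3b had no count and Wt1 counts in 5 members. Of 5 listed neural genes Nes, nestin of many progenitors and vascular cells, and Tubb3 passed, with ratios of 3.68 and 1.25 (0.90 for Tubb3 within pool 1), and Sox1 had counts in 4 members. The part of these cell types in the results was not tested.

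Epithelial genes divided the members. Of 8 genes, 3 were higher and 3 lower. Epcam and Cdh1, adhesion proteins of epithelia and of stem cells, had log2 ratios of -2.32 and -1.53, the latter -0.79 within pool 1. Krt8 and Krt18, the keratin pair of simple epithelia, had 2.97 and 2.16, and Krt19 2.61. Krt18 had a median of 16.2 and a highest level of 11774 CPM in members, and Krt8 was detected in 21 of 54 members against 64 of 115 others. Summed over the list, 13 members had 1000 CPM or more and 9 had no count. Without these 13 members the ratios were −2.88 for Krt8 and −2.44 for Krt18, and Krt19 was at 0.59, under 2-fold, so the higher means of all 3 keratins rested on them.

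The 13 keratin-rich members, 9 in pool 1 and 4 in pool 2, had a median of 7436 CPM of Acta2 and Tagln, 535 CPM of the collagen chains and 9541 CPM of the epithelial list. The other 41 members had medians of 16636, 2403 and 17.8 CPM. Depth was close, with medians of 1766855 and 1672658 counts. A group of 5 members had 1000 CPM or more of the pluripotent list. Their collagen sums were 0 to 155 CPM, their median G2M sum was 3004 CPM against 548 CPM in the other 49, and their median depth was 384533 counts against 1709394. Of these 5 cells 2 also belonged to the 13. These splits were made on the levels compared and are descriptions only.

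**Figure D4:**
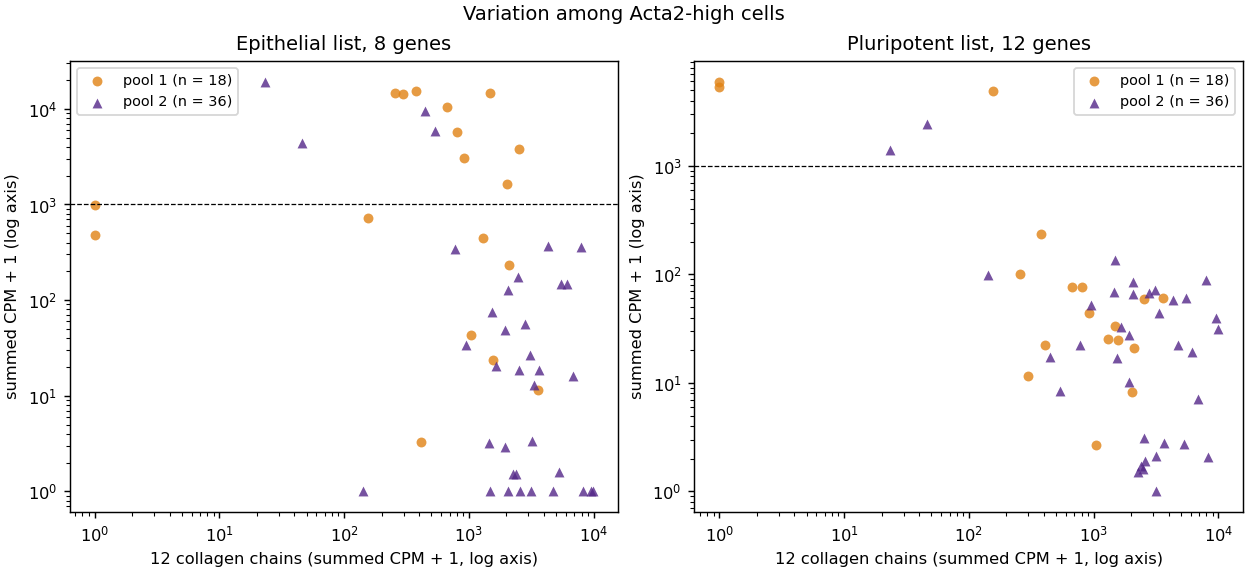
Each point is 1 of the 54 Acta2-high cells, with the summed CPM + 1 of 12 collagen chains on the x axis and that of the 8 epithelial genes (left) or the 12 pluripotent genes (right) on the y axis, all on log axes. Orange circles are pool 1 and violet triangles pool 2, and the dashed line is at 1000 CPM: 13 cells lie above it on the left, most at lower collagen, and 5 on the right, all at 155 CPM of collagen or less.

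Across the 54 members, which share a culture, the level of Acta2 and Tagln had a Spearman rho of 0.65 with the sum of the other contractile genes, 0.54 with the collagen chains and 0.50 with the SRF and YAP/TAZ targets, and of −0.07 with the G2M genes and −0.11 with depth. The collagen chains had a rho of 0.90 with the matricellular genes and 0.68 with the transition factors, but of 0.20 with the other contractile genes. Within the pools that last value was 0.48 (18 cells) and 0.42 (36 cells). The epithelial list had −0.55 with the collagen chains and −0.72 with the transition factors, and within the pools −0.28 and −0.32, and −0.47 and −0.61. With counts thinned to 100000 a cell, the value for the collagen chains and the epithelial list was −0.51.

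Of 5926 genes detected in at least 75% of members, the 8 whose CPM followed Acta2 and Tagln most closely were Gm7809, Gm48529, Cald1, Tpm4, Myl9, Cnn1, Lpp and Hs6st2, with a Spearman rho of 0.65 to 0.69 over 54 cells and of 0.61 to 0.73 over the 36 in pool 2. Gm48529 (chr9:45930112-45933738) is annotated as antisense within Tagln, and Gm7809 (chr17:21967501-21968242) as a processed pseudogene, whose values are uncertain because the counting of shared reads is not given in the sources used here. The use of strand in counting is not given either, so the reads of Gm48529 and Tagln cannot be told apart. Lpp, a zyxin family protein of focal adhesions, had means of 743 and 49.6 CPM in members and others, and Hs6st2, a heparan sulfate sulfotransferase, 127 and 14.7 CPM.

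The 2 pools held members with different matrix levels. The collagen sum had a median of 860 CPM in the 18 members of pool 1 and 2516 CPM in the 36 of pool 2, with ranges of 0 to 3581 and 22.4 to 9854 CPM that overlapped. Postn had a mean of 8.63 CPM in pool 1 and 499 in pool 2 (detected in 4 of 18 and 23 of 36), Fbln5 51.6 and 869 (3 and 27), and Bgn 169.7 and 1972. Mgp had 3.42 and 692 CPM, Vcam1, an adhesion receptor, 3.94 and 244, and Ptn, the growth factor pleiotrophin, 8.95 and 238. Contractile genes outside the rule had median sums of 8257 CPM in pool 1 and 6165 CPM in pool 2, with overlapping ranges. Acta2 and Tagln, which chose the members of both pools, had means of 10918 and 12901 CPM and of 3217 and 3325 CPM.

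Keratins and stem cell genes had higher means in the members of pool 1. Krt8 had 1560.3 and 266 CPM and Krt18 2680.2 and 626 in pools 1 and 2. Dppa5a had 454 and 25 CPM, and Pou5f1 was detected in 6 of 18 and 0 of 36 cells. The Dppa5a means rested on few cells, since 3 members of pool 1 had 2242 to 2978 CPM, and the median sums of the pluripotent list were 50.7 and 24.1 CPM. Mt1 and Mt2, metallothioneins that bind zinc, had 279 and 20.7, and 184 and 15.4 CPM. Trap1a, Nefl and Ifitm1 had 124, 80.8 and 71.6 CPM in pool 1 and under 2 CPM in pool 2. Vcam1, Ptn, Mt1, Mt2, Trap1a, Nefl and Ifitm1 were chosen after their values were seen. The pools have 1 set of members each. Per the study's methods, the libraries of a chip were pooled and the pools were later combined into fewer, but the columns do not say which chip, clone or culture a pool number holds, so these cannot be told apart.

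**Figure D5:**
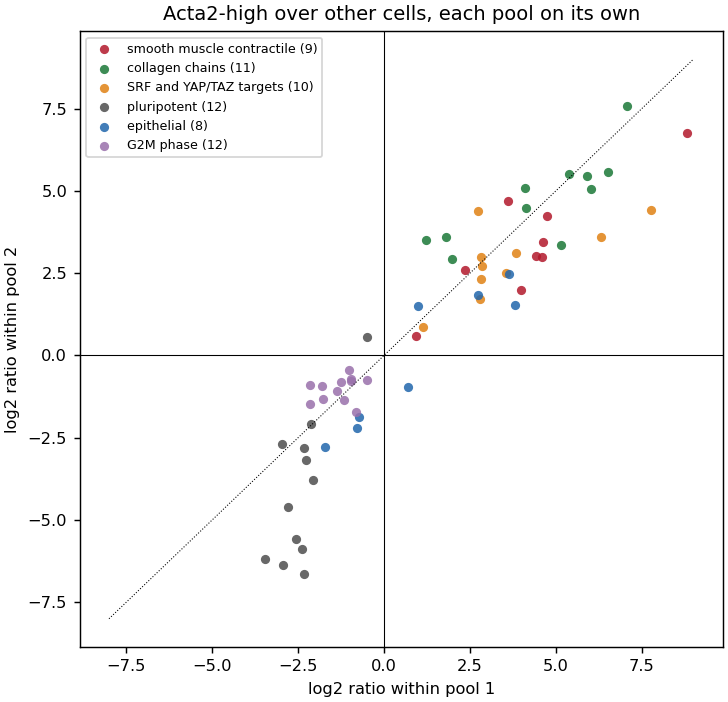
Log2 ratio of (mean CPM + 1) of Acta2-high over other cells within pool 1 (x axis) and within pool 2 (y axis) for genes of 6 lists outside the rule, with the number of genes in the key and the line of equal ratios dotted. Contractile, target and collagen genes lie above 0 in both pools, G2M genes below 0 in both, and most pluripotent genes lie further below 0 in pool 2 (list median −4.20) than in pool 1 (−2.36).

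The same rule was applied to the other cultures. In mESC it could not be applied in full, since Acta2 is not listed in that table, and Tagln alone reached 55.5 CPM at most in 203 cells at depth. In CB, 26 of 219 cells met it (11.9%, interval 7.90 to 16.9%), 12, 6 and 8 of them in its 3 pools, with 2149 to 26790 CPM of Acta2 and Tagln and a median of 4539. The CPCC and CB tables were counted differently, as one holds whole counts and the other estimated counts, so their levels are set side by side without a test. Over 12634 genes the median log2 ratio of CPCC members over these CB cells was −0.01, and 12.7% of them were at least 2-fold higher and 11.8% at least 2-fold lower in CPCC members. Over all 20995 genes in both tables these shares were 13.0% and 13.7%, and the list counts that follow also had no filter.

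Contractile genes outside the rule had a median log2 ratio of −0.18 between the 2 sets, with 0 of 12 at least 2-fold higher in CPCC members and 4 higher in the CB cells. Cnn1 had means of 278 and 209.7 CPM and Actg2 659 and 668 CPM in CPCC members and CB cells. Myh11 had counts in 4 of 54 and 7 of 26 and Mylk means of 7.02 and 109 CPM. Collagen chains were lower in CPCC members for 8 of 12 genes by at least 2-fold (median −1.90), as for Col3a1 with 268 and 4325 CPM. Small proteoglycans were lower for 6 of 7 (median −3.77), with Dcn at 45.5 and 3196 CPM, and elastin at 3.26 and 731 CPM. Of 10 SRF and YAP/TAZ targets, 4 were at least 2-fold higher in CPCC members and 1 in the CB cells (median 0.32). Of 9 matricellular genes, 3 were higher in CPCC members and 4 in the CB cells by that much (median −0.06). Pdgfra was detected in 4 of 54 and 15 of 26. Pluripotent genes were higher in CPCC members for 7 of 9 listed in both tables (median 3.02). The 7 genes were Nanog, Sox2, Zfp42, Esrrb, Tdgf1, Utf1 and Dnmt3l. Each had a member median of 0, with counts in 7 (Esrrb) to 26 (Utf1) members. Apart from that of Sox2, their means rested on few members. The 49 members outside the group of 5 had a median of 24.3 CPM over the pluripotent list. Mcam had 260 and 63.3 CPM.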

How the data were processed

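Single cells had been captured on the Fluidigm C1 system, and full-length cDNA libraries were sequenced. Per the labels, reads were aligned to mm10 with STAR 2.7. The CPCC values are whole counts per gene and the mESC and CB values estimated counts, both deposited by the authors without scaling, and the counting model and use of strand are not given in the sources used here. The tables were linked to samples through the culture each is named for. Left out were 2 empty CPCC columns without a sample, 208 rows with no gene and 23 symbols turned into dates (0.139% of counts). No library name was shared between tables.

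CPM were formed in Python 3.11.15, and log2 ratios used the mean CPM over cells plus a pseudocount of 1 CPM, which understates changes of low genes. Genes with 1 or more counts in 25% of the cells of either set were kept. CPM are not scaled for length and are not compared between genes. TMM (edgeR 4.0.16) and DESeq2 1.42.0 size factors served as alternatives on summed counts. With 1 sample per group no test was made. Ratios were checked on simulated data. The members, lists and alternatives were chosen with earlier results of these data known. Named genes were the list genes, the 15 highest and 10 lowest ratios described above, and the 8 genes that followed Acta2 and Tagln. One of the 15 is not reported here. Reads carry no molecular identifiers. The intervals are on shares of cells and treat cells as independent draws, so spread between cultures, clones or chips is not in them. Gene positions are from GENCODE for GRCm38.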

Additional observations from a re-analysis of the deposited data

How the results depend on the processing

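Each alternative changed 1 setting, except that TMM and DESeq2 size factors were applied to summed counts. With a pseudocount of 10 CPM, 1096 genes were at least 2-fold higher and 855 lower, and with no filter on low genes 3019 were lower. The contractile median log2 ratio was 4.50 as a difference of mean log2(CPM + 1) and 4.43 within pool 1. The collagen median was 4.65 with summed counts, 4.74 with TMM, 4.76 with DESeq2 size factors, 3.90 with a pseudocount of 10 CPM, 4.89 as a difference of mean logs and 4.51 with a threshold of 4000 CPM. The G2M median was −2.53 as a difference of mean logs. The pluripotent median was −2.58 with a pseudocount of 10 CPM, −4.37 as a difference of mean logs, −2.36 and −4.20 within pools 1 and 2, −4.30 at a depth of 430000 counts and −4.16 with a threshold of 4000 CPM. It was −6.35 without the 5 members with 1000 CPM or more of that list, an alternative chosen after seeing the data. For these changes the cause was not tested beyond what each setting leaves out.

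Among lists with a median log2 ratio of at least 1 in size, the medians of 3 others changed sign. The macrophage median, which is that of Cd68 alone outside the rule, was 1.18 within pool 1 and 0.64 without the C1q-high cells, and mesothelial and neural genes were at −0.58 and −0.087 with no filter. Smaller medians were not followed for sign. The epithelial median was 0.24, and that list depended on the 13 keratin-rich members. Without them Krt7, Cldn6 and Cldn7 were at −2.74, −5.27 and −5.49, beside Krt8 and Krt18 at −2.88 and −2.44, while Krt19 was at 0.59. The elastic fibre median of 4.30 was 2.12 with a pseudocount of 10 CPM, 2.77 as a difference of mean logs, 2.77 within pool 1 with the filter applied anew and 3.72 with a threshold of 4000 CPM. The median over all genes was −0.10, and 0.01 with TMM and 0.02 with DESeq2. Of 191 called genes 11 had the opposite sign under at least 1 of 17 alternatives: Mfap5, Eng, Mef2c, Igfbp3, C1qb, C1qc, Cd68, Krt8, Krt18, Dab2 and Pth1r. No paired analysis was possible because cells have no replicate number and nothing here was tested. The low counts of Myh11, Myocd and similar genes limit what detection shares can show.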
